A study of Mus musculus with 2 samples.

Results

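The enzymes that write, copy and remove DNA methylation were examined on 2 expression arrays of mouse thymocytes. The 7 genes, of 18193 genes with a probe set of their own on the array, were Dnmt1, Dnmt3a, Dnmt3b, Uhrf1, Tet1, Tet2 and Tet3. Every probe set whose only gene symbol in the platform annotation was one of these names or an older alias was taken, which gave 19 of 34945 single-gene probe sets. All 19 carried the current symbol, and no probe set listed with several genes named any of the 7.

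The cells were lineage-negative thymocytes of C57BL/6J mice, 1 array titled DKO and 1 titled TKO. By the design text the DKO animals were LckCre(-)Cdkn2a-/-Ring1A-/-Ring1Bfl/fl and the TKO animals LckCre(+)Cdkn2a-/-Ring1A-/-Ring1Bfl/fl, so Cdkn2a and Ring1A loss is shared and Lck-Cre, which acts in T lineage cells, deletes Ring1B in TKO alone. The samples' genotype field instead calls DKO a Ring1A and Ring1B double knockout and adds Cdkn2a loss in TKO. The labels' growth field says the cells were kept in culture, and the labels give no age, sex or number of animals per array. Ring1A (Ring1) and Ring1B (Rnf2) are the ubiquitin ligases of Polycomb repressive complex 1, a repressor of developmental genes, and the question put to the arrays is which early thymocyte transcripts differ between these genotypes.

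Each title had 1 array, so there is no replicate error, no test and no p-value, and every difference below describes these 2 arrays. Signals are MAS5 intensities in arbitrary units. A signal counted as measured when it reached the median of its array (68.8 for DKO, 71.8 for TKO), a ratio is the log2 of TKO over DKO with lower signals raised to that floor, and 2-fold was the size at which a difference was counted. Targeted transcripts did not settle which genotype text holds, and sex-linked ones differed. Cdkn2a had 679 on the DKO array and 18.5 on the TKO array, and Rnf2 had 4149 and 4384 on its brightest probe set. Whether either probe set overlaps its deleted segment is unknown here, so the values check nothing firmly. Xist had 124 and 16502, and the Y-linked Eif2s3y had 1711 and 55.3, so sex-linked signals differed together with the title. DKO and TKO below mean the arrays so labelled.

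In mammals cytosines are methylated mainly where a guanine follows, at CpG sites. DNMT3A and DNMT3B place new methyl groups, and after each round of replication UHRF1 recognises half-methylated CpG sites and brings DNMT1 to copy the mark to the new strand. The TET enzymes oxidise the methyl group step by step, and the oxidised base is lost on replication or cut out by base excision repair. In the T lineage these enzymes are known for roles in thymocyte survival, lineage choice and the restraint of leukaemia.

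None of the 7 enzymes differed by 2-fold between the arrays. Of the 19 probe sets, 18 were measured on both arrays, and 0 of these 18 were 2-fold higher and 0 were 2-fold lower in TKO. Over all 20400 single-gene probe sets measured on at least 1 array, 2.97% were 2-fold higher and 0.510% were 2-fold lower, 3.48% in all, so a count of 0 among 18 is near that background. At 1.5-fold the members' count was again 0 in each direction, against a background of 8.10% higher and 3.67% lower. The members' ratios ran from -0.48 to 0.30, with a median log2 ratio of -0.22, and 14 of 18 were negative. Over all single-gene probe sets measured on both arrays the median log2 ratio was -0.03 and 54.0% were negative.

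**Figure D1:**
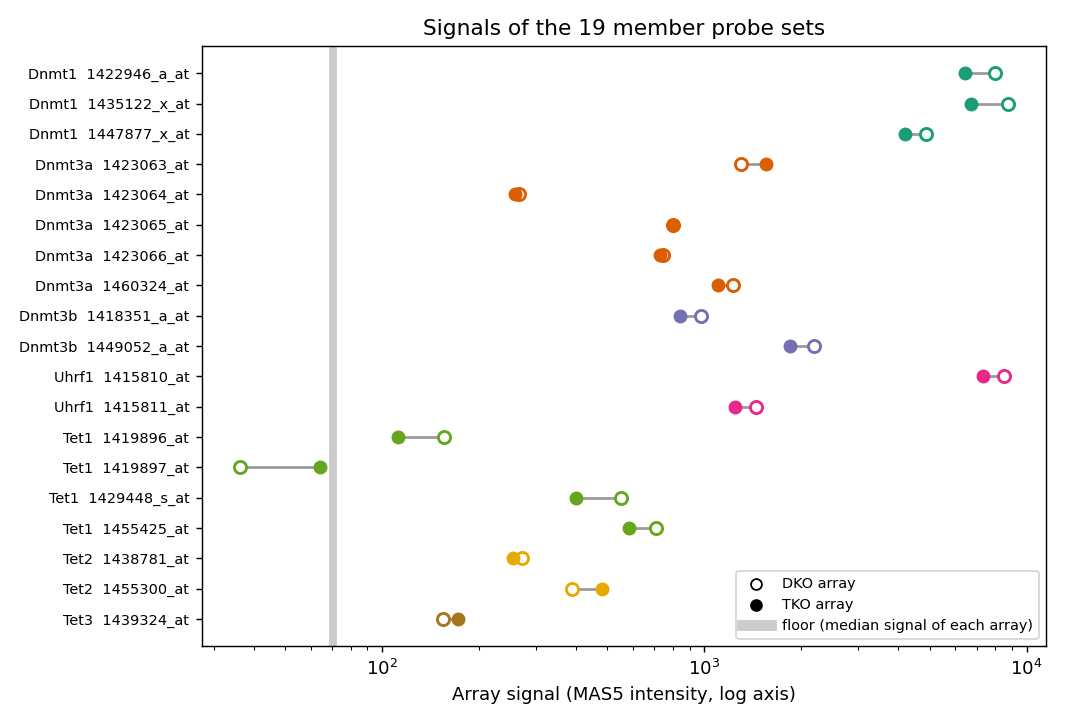
Signal of each of the 19 member probe sets on the DKO array (open circles) and the TKO array (filled circles), on a log axis, with the floor as a grey band. The Dnmt1, Dnmt3b and Uhrf1 probe sets lie to the left in TKO, those of Dnmt3a and Tet2 go either way, and 1 Tet1 probe set lies below the floor on both arrays.

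The enzymes fell into those with every measured probe set on the same side of 0 and those without. Of the 6 genes with 2 or more measured probe sets, 4 (Dnmt1, Uhrf1, Dnmt3b and Tet1) were lower in TKO on each measured probe set, 10 probe sets in all, and 2 (Dnmt3a and Tet2) had probe sets on both sides. Such a match in sign is common on these arrays. Among 2826 genes with 2 probe sets measured on both arrays, 35.4% had both lower, and among 1188 genes with 3 such probe sets, 23.1% had all 3 lower. Probe sets of a gene are read from the same RNA and are not replicates.

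DNA upstream of an annotated start of the 4 genes lower on every measured probe set is shown because CpG sites, in capitals, are the substrate of these same enzymes. The 4 were chosen from their ratios. The sequences are RefSeq's, build GRCm38.p6, each 5′ to 3′ on the gene's strand, for Dnmt1 chr9:20952980-20953229 (minus strand), Uhrf1 chr17:56304063-56304312 (plus strand), Dnmt3b chr2:153649199-153649410 (plus strand) and Tet1 chr10:62887470-62887574 (minus strand).
Dnmt1: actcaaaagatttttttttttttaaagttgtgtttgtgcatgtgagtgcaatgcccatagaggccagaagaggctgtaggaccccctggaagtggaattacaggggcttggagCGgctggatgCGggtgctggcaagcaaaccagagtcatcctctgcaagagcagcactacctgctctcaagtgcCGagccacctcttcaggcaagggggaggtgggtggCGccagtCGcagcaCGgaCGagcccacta
Uhrf1: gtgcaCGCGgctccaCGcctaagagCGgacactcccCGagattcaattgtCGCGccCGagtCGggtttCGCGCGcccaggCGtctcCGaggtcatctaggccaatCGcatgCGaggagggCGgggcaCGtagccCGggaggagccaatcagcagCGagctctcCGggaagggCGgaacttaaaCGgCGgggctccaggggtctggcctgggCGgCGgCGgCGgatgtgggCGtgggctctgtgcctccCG
Dnmt3b: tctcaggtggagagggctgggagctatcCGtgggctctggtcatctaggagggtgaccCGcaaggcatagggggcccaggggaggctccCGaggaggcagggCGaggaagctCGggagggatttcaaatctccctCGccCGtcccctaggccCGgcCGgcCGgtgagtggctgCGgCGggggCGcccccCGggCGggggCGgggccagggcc
Tet1: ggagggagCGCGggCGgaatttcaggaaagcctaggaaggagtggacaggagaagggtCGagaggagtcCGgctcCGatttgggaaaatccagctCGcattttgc

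These windows differ widely in CpG content. The Dnmt1 stretch holds 7 CpG sites in 250 bases, and the Uhrf1 stretch 30 in 250. The Dnmt3b stretch holds 16 in 212 bases and the Tet1 stretch 7 in 105, both stopped at the gene's outermost annotated start. Counted over the full 250 bases before the start, Dnmt3b had 21 and Tet1 15, and of the genes not printed Tet3 had 17, Dnmt3a 38 and Tet2 51. Over 32851 annotated windows of that length the median was 6 sites, with quartiles of 2 and 16. Where a member had several starts, its window was picked by CpG content under the rule given below. The background windows were not picked so, and the counts are not like for like. Dnmt1 has 2 other annotated starts, with 26 and 2 sites. Uhrf1 has another with 10, and Dnmt3a has others with 40 and 15. The counts of these genes thus depend on the start used. The word TTTCGCGC, a form of the E2F site found at many replication genes, occurred on either strand once in the Uhrf1 window and once in another of the 3 Dnmt1 windows, and in 0.256% of all windows. The E2F forms TTTCCCGC and TTTGGCGC, in 0.895% and 0.417% of all windows, were in 0 of the 12 member windows. The GC box GGGCGG was in 10 of the 12 and in 32.7% of all windows, and CCAAT was in 5 of the 12 and in 33.8% of all windows. The 12 windows belong to 7 genes, some overlap, and the GC box itself holds a CpG. A match is a description of the letters and shows no binding.

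The maintenance pair Dnmt1 and Uhrf1 was measured from 17.4 to 127 times the floor and was somewhat lower in TKO on every probe set. Dnmt1, the methyltransferase that copies the mark, had 7978 on the DKO array and 6419 on the TKO array by probe set 1422946_a_at (log2 ratio -0.31, 1.24-fold lower). Probe set 1435122_x_at gave 8761 and 6727 (log2 ratio -0.38, 1.30-fold lower), and 1447877_x_at gave 4887 and 4203 (log2 ratio -0.22, 1.16-fold lower). All 3 were lower in TKO, and their ratios lay within 0.16 of each other on the log2 scale. The _x_at type can bind related transcripts, and the _a_at type detects several transcripts of the same gene.

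Uhrf1, which binds half-methylated DNA and carries a ubiquitin ligase domain, had 8521 and 7321 on probe set 1415810_at (log2 ratio -0.22, 1.16-fold lower). Its dimmer probe set 1415811_at gave 1451 and 1247 (log2 ratio -0.22, 1.16-fold lower). The Uhrf1 probe sets gave the same ratio to 2 decimals on the deposited scale, but not after rescaling. After lowess they were at -0.12 and -0.19, and after quantile normalization at -0.13 and -0.24.

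Of the de novo enzymes, Dnmt3b was lower on both probe sets and Dnmt3a had no common direction. Dnmt3b had 977 on the DKO array and 838 on the TKO array by 1418351_a_at (log2 ratio -0.22), and 2193 and 1838 by 1449052_a_at (log2 ratio -0.25). These are 1.17-fold and 1.19-fold lower.

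Dnmt3a, the other de novo enzyme and a gene often mutated in blood cancers, had 5 probe sets, all measured. Probe set 1423063_at gave 1297 on the DKO array and 1552 on the TKO array (log2 ratio 0.26, 1.20-fold higher), and 1460324_at gave 1225 and 1102 (log2 ratio -0.15, 1.11-fold lower). Between them lay 1423065_at at 797 and 797 (log2 ratio 0.0015), 1423066_at at 744 and 730 (-0.03), and 1423064_at at 266 and 259 (-0.04). So 3 of the 5 Dnmt3a probe sets were within 0.05 of 0 on the log2 scale, and the range over all 5 was 0.41. That range is larger than any of the 5 ratios.

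The 2 largest differences among the members were both of Tet1, whose 3 measured probe sets were lower in TKO. This TET enzyme carries a CXXC domain that binds unmethylated CpG sites. Probe set 1429448_s_at gave 553 on the DKO array and 399 on the TKO array (log2 ratio -0.47, 1.39-fold lower), and 1455425_at gave 708 and 586 (log2 ratio -0.27, 1.21-fold lower). Probe set 1419896_at gave 156 and 112 (log2 ratio -0.48, 1.39-fold lower), but its TKO signal was only 1.56 times the floor. The fourth, 1419897_at, had 36.3 and 64.3, below the floor on both arrays, and has no ratio. Its deposited signals run the other way, with a log2 ratio of 0.82 when no floor is used. The _s_at type can bind transcripts of other genes.

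Tet2 and Tet3 showed no shared lower signal. Tet2, which lacks the CXXC domain and is often mutated in blood cancers, had 389 on the DKO array and 480 on the TKO array by 1455300_at (log2 ratio 0.30, 1.23-fold higher). By 1438781_at it had 271 and 255 (log2 ratio -0.09, 1.06-fold lower), so its 2 probe sets differed in sign and by 0.39 on the log2 scale. Tet3, the TET enzyme best known from the fertilised egg and nervous tissue, had a single probe set, 1439324_at, at 154 and 172 (log2 ratio 0.16, 1.11-fold higher). It was 2.24 and 2.40 times the floor.

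These sizes were set beside the scatter of the arrays themselves. Across 4794 genes with 2 or more probe sets measured on both arrays, the ratios of the brightest 2 differed with a robust SD of 0.21 per probe set on the log2 scale, a figure that holds no error between animals or hybridisations. All 18 measured member ratios lay inside the central 95% of ratios of probe sets in the same quartile of signal. In the brightest quartile, which holds the 3 Dnmt1 probe sets, 1 of Uhrf1 and 1 of Dnmt3b, the central 95% ran from -0.45 to 0.73, with a median of -0.08. In the third quartile it ran from -0.57 to 1.01, in the next lower from -0.66 to 1.13, and in the dimmest from -0.79 to 1.05. The lowest placed were 1419896_at and 1429448_s_at of Tet1, at percentiles 5.86 and 6.06 of all measured ratios, and 1435122_x_at of Dnmt1 at percentile 9.73. The highest were 1455300_at of Tet2 at percentile 82.9 and 1423063_at of Dnmt3a at 80.0.

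**Figure D2:**
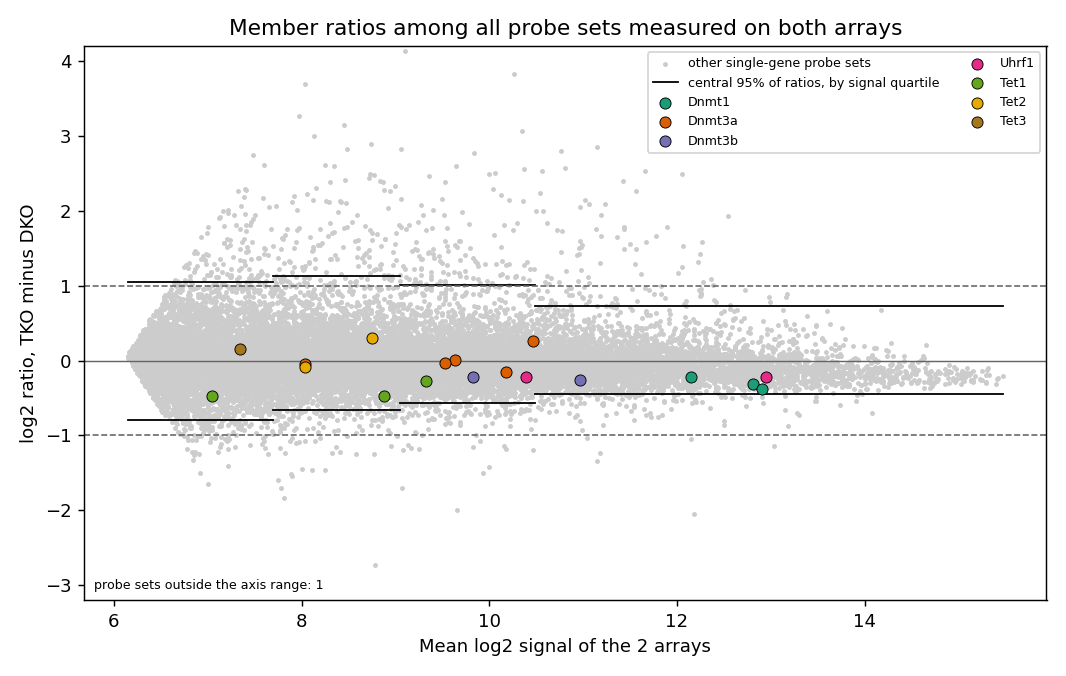
Log2 ratio (TKO minus DKO) against the mean log2 signal of the 2 arrays for all single-gene probe sets measured on both (grey), with the 18 measured member probe sets in colour. Black lines mark the central 95% of ratios in each signal quartile and dashed lines 2-fold. Every member point lies between the black lines, and the brightest ones, Dnmt1 and Uhrf1, lie below 0 where the grey cloud itself turns slightly down.

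The genes around these enzymes were read from 7 lists of 101 genes in all, each gene by its brightest single-gene probe set. Of the 71 measured, 2 were 2-fold higher in TKO, 0 were 2-fold lower and 69 were neither. The median log2 ratio was -0.08, and 48 were negative. Over all 11280 genes measured, 3.58% were 2-fold higher and 0.532% 2-fold lower, with a median of -0.03, 4.11% in all, so these counts are near the background. A further 22 genes of the lists were below the floor on both arrays and 8 had no single-gene probe set here, among them Tdg, the glycosylase that removes oxidised bases left by the TET enzymes, whose probe sets are listed with several genes.

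Partners of maintenance methylation had 13 of 15 measured ratios below 0, with 0 past 2-fold and a median log2 ratio of -0.14. Cbx5, a heterochromatin protein that binds methylated histones, had 4712 on the DKO array and 3386 on the TKO array (log2 ratio -0.48). Dmap1, a DNMT1-associated protein, had 688 and 557 (-0.30), and Pcna, the replication clamp that DNMT1 binds, had 30038 and 24386 (-0.30). After quantile normalization Pcna was at -0.08. These are the 3 of the list farthest from 0.

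Relatives of the 7 enzymes differed little on their brightest probe sets. Uhrf2, the paralog of Uhrf1, had 1131 and 1123 on the DKO and TKO arrays (log2 ratio -0.01). Trdmt1, a relative of the DNA methyltransferases that methylates transfer RNA, had 552 and 522 (log2 ratio -0.08), and with the log2 signals of all its probe sets averaged the log2 ratio was 0.45. Dnmt3l, the inactive cofactor of the de novo enzymes in germ cells, was below the floor on both arrays, at 45.4 and 55.5. Among genes that steer where methylation is placed, 10 of 12 were measured. On their brightest probe sets 0 passed 2-fold and the median log2 ratio was -0.03. The largest differences there were Daxx, a histone chaperone, at 0.28 (995 to 1211), Trim28, the corepressor of KRAB zinc finger proteins, at -0.22 (10086 to 8634), and Nsd1, a histone methyltransferase, at -0.16 (2130 to 1909).

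By brightest probe set, the pathway genes past 2-fold both stood among the demethylation partners. There 20 genes were measured, 2 of them higher, 0 lower and 18 neither, around a median log2 ratio of 0.07. Apobec1, a cytidine deaminase best known for editing apolipoprotein B messenger RNA, had 450 on the DKO array and 1125 on the TKO array (log2 ratio 1.32, 2.50-fold higher). Gadd45a, a stress-induced gene that has been linked to DNA demethylation, had 183 and 395 (log2 ratio 1.11, 2.16-fold higher). With a higher floor, the 75th percentile of each array, Gadd45a has no ratio. Gadd45b, of the same family, had 392 and 656 (log2 ratio 0.74). Its dimmest probe set was lower in TKO (93.0 to 59.4, below the floor), and the mean over its probe sets gave 0.28. A mean over probe sets, here and below, averages the deposited log2 signals of every probe set of the gene, those below the floor included, and applies the floor to that mean.

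**Figure D3:**
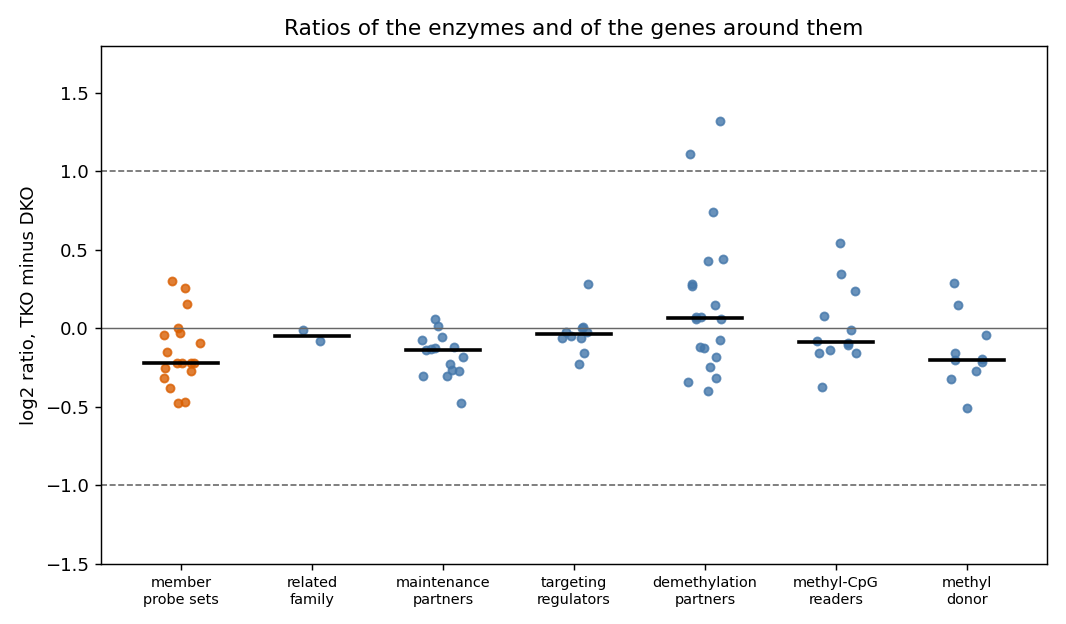
Log2 ratio (TKO minus DKO) of the 18 measured member probe sets (orange) and of the measured genes of 6 lists around them (blue, 1 point a gene), with the median as a black bar and 2-fold as dashed lines. Of all points shown, those past 2-fold are Apobec1 and Gadd45a among the demethylation partners.

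On their brightest probe sets, readers of methylated CpG sites and the methyl donor genes also stayed within 2-fold. The reader list had 12 measured genes and a median log2 ratio of -0.08. It ran from Mbd3, a subunit of the NuRD complex, at -0.38 (1898 to 1463) to the methyl-CpG-binding zinc finger gene Zbtb4 at 0.54 (267 to 389). Zbtb38, a relative of Zbtb4, was at 0.34 (176 to 224). As the mean over its 3 probe sets, 1 of which was below the floor on both arrays, Zbtb38 was at 0.59. The list also holds other NuRD subunits, which ran from -0.16 to -0.08. Mbd1, Mbd2 and Zbtb33 were at 0.08, -0.01 and 0.24, so the list's median is not that of the readers alone. The methyl donor list, which holds the folate and methionine cycle, had 10 measured genes, of which 8 were negative, and a median of -0.20. Its largest differences by brightest probe set were Mthfd1, a folate cycle enzyme, at -0.51 (4122 to 2903), and Mtr, the methionine synthase, at -0.32 (479 to 384). Next was Mat2b, a regulatory subunit of the enzyme that makes S-adenosylmethionine, at 0.29 (1811 to 2210). As the mean over its probe sets Mthfd1 was at -0.07.

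Germline genes known to be kept silent by promoter methylation were mostly not measured on either array. Of 20 listed, 18 were below the floor on both arrays, among them Dazl, an RNA-binding protein of germ cells, at 16.7 and 21.0. The other two were Brdt, a testis bromodomain gene, at 158 and 157 (log2 ratio -0.01) and Stag3, a meiotic cohesin subunit, with a DKO signal of 122 and a TKO signal of 53.3 that did not reach the floor, at least 1.70-fold lower. No gene of the list was counted as 2-fold higher or lower, though with the floor at the 25th percentile Stag3 was at -1.20.

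Cell cycle genes and cell type markers also differed between the arrays, and their part in the members' ratios was not tested. Dnmt1 and Uhrf1 are known to be made mainly in cycling cells. The DNA replication list had 21 of 23 measured genes below 0, with a median log2 ratio of -0.25 and a range from -0.69 for Chaf1b, a subunit of the histone chaperone CAF-1, to 0.37 for Ccne2, a cyclin of S phase entry. Its summed signal was 158001 on the DKO array and 134333 on the TKO array. The mitosis list had 11 of 13 below 0, a median of -0.18 and sums of 87902 and 76385. The ratios of Dnmt1 and Uhrf1, from -0.38 to -0.22, lay within the range of the replication list. So did all 18 measured member ratios, from -0.48 to 0.30, and that range therefore sets no member apart.

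All measured T lineage markers, 12 of 12, were lower in TKO, with a median log2 ratio of -0.53 and summed signals of 113737 and 78066, and Il2ra (CD25) was past 2-fold at -1.05 (6536 to 3162). All 11 measured B lineage markers were 2-fold higher, with a median of 2.01 and sums of 11292 and 44454. Of the myeloid markers 8 were measured, 2 higher, 1 lower and 5 neither (sums of 3853 and 4707), with Itgam below the floor on both arrays. Those higher were Csf1r (249 to 807, log2 ratio 1.69) and Lyz2 (855 to 2131, log2 ratio 1.32). The lower one was S100a9 (860 to 384, log2 ratio -1.16). Of the innate lymphoid and natural killer markers 6 were measured, around a median of 0.36, and 1 of them (Klrd1, 1.08) was 2-fold higher and 0 were 2-fold lower. Their sums of 24872 and 22628 are mostly Gzma (21801 and 18012), the 1 measured gene of the list with a negative ratio. Of 5 erythroid markers with a probe set, 4 were below the floor on both arrays. Of 10 stromal and epithelial markers, 4 were below it on both arrays, Foxn1 and Col1a1 among them, and 6 were measured, 0 past 2-fold and 1 negative, with a median of 0.36 (sums of 1477 and 1585). The farthest from 0 there were Col3a1, at least 1.70-fold higher (57.0, below the floor, to 117), and Krt8 at 0.42. Of the markers of the later double-positive stage 3 were measured and 0 passed 2-fold, with a median of 0.04 (sums of 3632 and 2983). Cd8a had 616 and 635 on its brightest probe set (log2 ratio 0.04), and its other probe sets were higher in TKO, from 0.10 to 0.52. Cd8b1 had 975 and 1080, Aqp11 had 2023 and 1257 (log2 ratio -0.69), and Cd4 was below the floor on both arrays (17.8 and 12.2). In RNA from a bulk cell preparation, fewer cells of a type and less RNA per cell cannot be told apart.

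**Figure D4:**
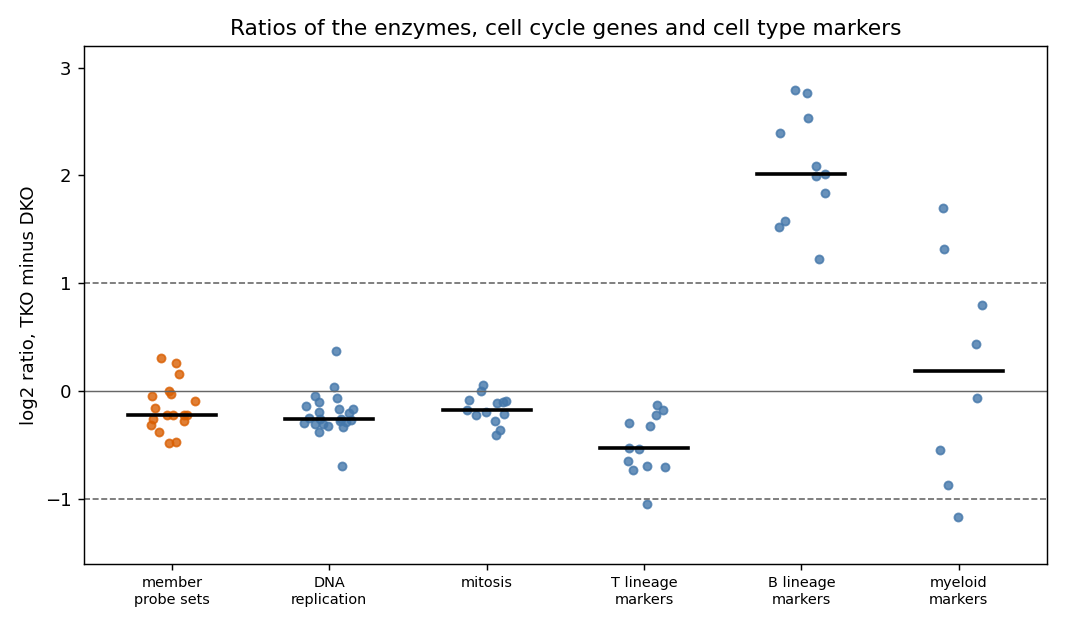
Log2 ratio (TKO minus DKO) of the 18 measured member probe sets (orange) and of the measured genes of the replication, mitosis, T lineage, B lineage and myeloid lists (blue, 1 point a gene), with medians as black bars and 2-fold as dashed lines. The members' median of -0.22 lies between those of the mitosis (-0.18) and replication (-0.25) lists, and the B lineage markers are all above 2-fold.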

How the data were processed

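Total RNA of lineage-negative thymocytes was hybridised as biotin-labelled cRNA, 1 array per title. The deposited values are linear array intensity values, which the submitters' processing notes credit to MAS5 without version or settings. Their trimmed mean (2% off either tail) was 497 for DKO and 497 for TKO. Depth does not apply, and the number of arrays limits the precision. Detection calls and scanner files were not used here.

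Arrays were grouped by title. Of 45037 probe sets, 34945 carried 1 gene, 932 several, and 9160 were not listed in the platform annotation used here; 99.4% of the single-gene ones matched a RefSeq table of GRCm38.p6 by Entrez ID. The floor, the 2-fold rule and the choice of the brightest probe set per list gene are as described above. Named were all member probe sets, and of each pathway list all genes past 2-fold, the 3 farthest from 0 and all relatives. Of the other lists at most 2 genes with the largest ratios were to be named. Some genes were named outside these rules and picked with their values known. They are Atrx, Shmt2, Mbd1, Mbd2, Zbtb33, Ccne2, Dazl, Tdg, Itgam, S100a9, Foxn1, Col1a1, Gzma, Cd4, Cd8a and the targeted and sex-linked genes. With 2 arrays a pattern over samples is 1 ratio, so no gene was named for a like pattern. Members and lists were chosen with earlier results of these data known. The code was tested on simulated data with known changes. Promoter windows were the 250 bases before a start; of several starts the one with most CpG sites was used, leaving out starts within 500 bases downstream of another. Python 3.11.15, numpy 2.4.6, pandas 2.3.3, statsmodels 0.14.6 (lowess, span 0.3) and matplotlib 3.10.9 were used.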

Additional observations from a re-analysis of the deposited data

How the results depend on the processing

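The signals were rescaled by median, by quantiles or by lowess, the floor was moved to the 25th or the 75th percentile or dropped, and other probe set choices, a 1.5-fold rule and the genes without X and Y were tried. The count of member probe sets past the size rule was 0 in each direction under every one that applied to it, and their median log2 ratio was -0.14 after lowess and -0.19 after quantile normalization. Of 18 member ratios, 17 kept their sign, all between -0.53 and 0.33, and Dnmt3a probe set 1423065_at changed sign after quantile normalization (-0.04). Tet1 probe set 1419897_at enters at 0.82 with no floor. The floor moved the other counts. Of the pathway genes, 1 (Apobec1) was 2-fold higher with the floor at the 75th percentile and 5 with none (Apobec1, Gadd45a, Ddx4, Tex101 and Sycp1). With the floor at the 25th percentile 1 (Stag3) was 2-fold lower, and with none 5 (Stag3, Hormad1, Slc25a31, Tex11 and Mov10l1). The germline genes among these, Stag3 apart, lay below the floor on both arrays. Over all single-gene probe sets, 605 higher and 104 lower became 1753 and 861 at the 25th percentile, 200 and 18 at the 75th, 4467 and 3236 with no floor, and 1653 and 749 at 1.5-fold. A lower floor admits dimmer probe sets. No paired analysis was possible because each title has 1 array. Without replicates none of these ratios has an error.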
